A study of Mus musculus with 6 samples.

Results

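The genes described here act in the detection and repair of DNA damage, and their RNA was counted in the hypothalamus of female mice with and without *Fmr1*. A list of 36 genes was taken by name, and 33 of them had a probe row in both deposited tables, out of 787 probes in all. The 3 others, *Ercc6*, *Xpc* and *Brip1*, were not analysed here. Hypothalami came from 3 *Fmr1* KO mice (strain FVB.129P2-Fmr1tm1Cgr/J, in which *Fmr1* is disrupted throughout the animal) and 3 congenic WT mice of the FVB background, all females in diestrus at 8 weeks of age. From each mouse, 50 ng of RNA was run in 1 lane of the nCounter instrument, which counts colour-coded probes bound to each RNA without amplification.

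Cells repair their DNA along several routes that share sensors and kinases. Breaks are found by the complex of MRE11, RAD50 and NBN, stalled replication forks by a clamp that contains RAD9 and RAD1, and both signal through the kinases ATM and ATR to the checkpoint kinases and p53. Bulky lesions and oxidized bases are cut out by excision repair, and breaks are rejoined by end joining or, with a sister chromatid as template, by homologous recombination. Neurons do not divide, so in brain tissue the routes bound to replication are expected mainly in its dividing glial and progenitor cells, while excision repair and end joining operate in resting cells as well. To set these apart, *Brca1*, *Fancd2*, *Blm*, *Chek1*, *Top2a*, *Pcna*, *Pole* and *Lig1* were taken as replication-linked genes, which are transcribed mainly in cycling cells, and the other 25 as constitutive genes.

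Total counts per lane ranged from 165514 to 339934 in *Fmr1* KO mice and from 261019 to 303764 in WT mice. *Fmr1* KO replicate 2 had the lowest total, and its counts were multiplied by a factor of 1.72 in the authors' normalized table, while the 5 remaining factors were 0.767 to 1.13. Normalized counts below are raw counts times this lane factor. The hypothalamic identity of the samples was visible in 8 of 8 marker genes, among them *Oxt*, *Avp*, *Hcrt* and *Pomc*, which had at least 104 raw counts in every lane. Raw counts of the pituitary gene *Prl* were 4, 6 and 9 in *Fmr1* KO mice and 123, 6 and 1626 in WT mice, so that WT replicates 3 and 1 stood apart in this gene, and its part in the values below was not tested. *Fmr1* itself was not analysed here. In bulk tissue, fewer cells of a type and less RNA per cell cannot be told apart, and *Fmr1* KO lanes carried the higher lane numbers, so that genotype and lane number cannot be told apart either. The p-values rest on these mice only. In edgeR, the error behind them combines the spread between mice with counting error and with information shared over all tested probes.

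Most repair genes were counted well above the lowest probes. Of the 33 genes, 27 (81.8%) exceeded 20 raw counts in at least 3 of the 6 lanes, against 76.4% of all 787 probes, and 24 exceeded 20 counts in every lane. The genes kept were 23 of 25 constitutive genes (92%) but 4 of 8 replication-linked genes (50%). The replication-linked genes that passed were *Pcna* and *Lig1*, in all lanes, and *Blm* and *Top2a*, each in exactly 3 lanes. *Blm*, which encodes a helicase, had 37, 13 and 22 raw counts in *Fmr1* KO mice and 23, 20 and 11 in WT mice. *Top2a*, which encodes the topoisomerase that untangles replicated chromosomes, had 28, 22 and 11 raw counts in *Fmr1* KO mice and 23, 18 and 14 in WT mice. These genes lay just inside the minimum, and the next genes lay just outside. *Chek1*, the checkpoint kinase downstream of ATR, had 20, 14 and 14 raw counts in *Fmr1* KO mice and 28, 18 and 17 in WT mice. *Chek2*, its counterpart downstream of ATM, had 15, 15 and 17 raw counts in *Fmr1* KO mice and 9, 22 and 18 in WT mice. Both kinases exceeded 20 counts in 1 lane each, WT replicate 1 for *Chek1* and WT replicate 2 for *Chek2*.

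The other genes under the minimum never exceeded 20 counts. *Pole*, the catalytic subunit of a replicative DNA polymerase, had 20, 18 and 14 raw counts in *Fmr1* KO mice and 16, 12 and 13 in WT mice. *Brca1*, the recombination mediator, had 14, 12 and 11 raw counts in *Fmr1* KO mice and 12, 14 and 15 in WT mice. *Fancd2*, which marks crosslinks for repair once it carries ubiquitin, had 8, 6 and 10 raw counts in *Fmr1* KO mice and 7, 3 and 6 in WT mice. *Rad51b*, a gene of homologous recombination and the lowest of the constitutive genes, had 14, 17 and 6 raw counts in *Fmr1* KO mice and 9, 3 and 10 in WT mice. For comparison, the lowest 78 probes of the table averaged 5.92 to 9.19 raw counts in *Fmr1* KO lanes and 7.42 to 8.33 in WT lanes, so *Fancd2* and *Rad51b* were at or near the level of the emptiest probes. Probes differ in how well they capture their RNA, so a low count of a gene was not read as a lower level than that of another gene.

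**Figure D1:**
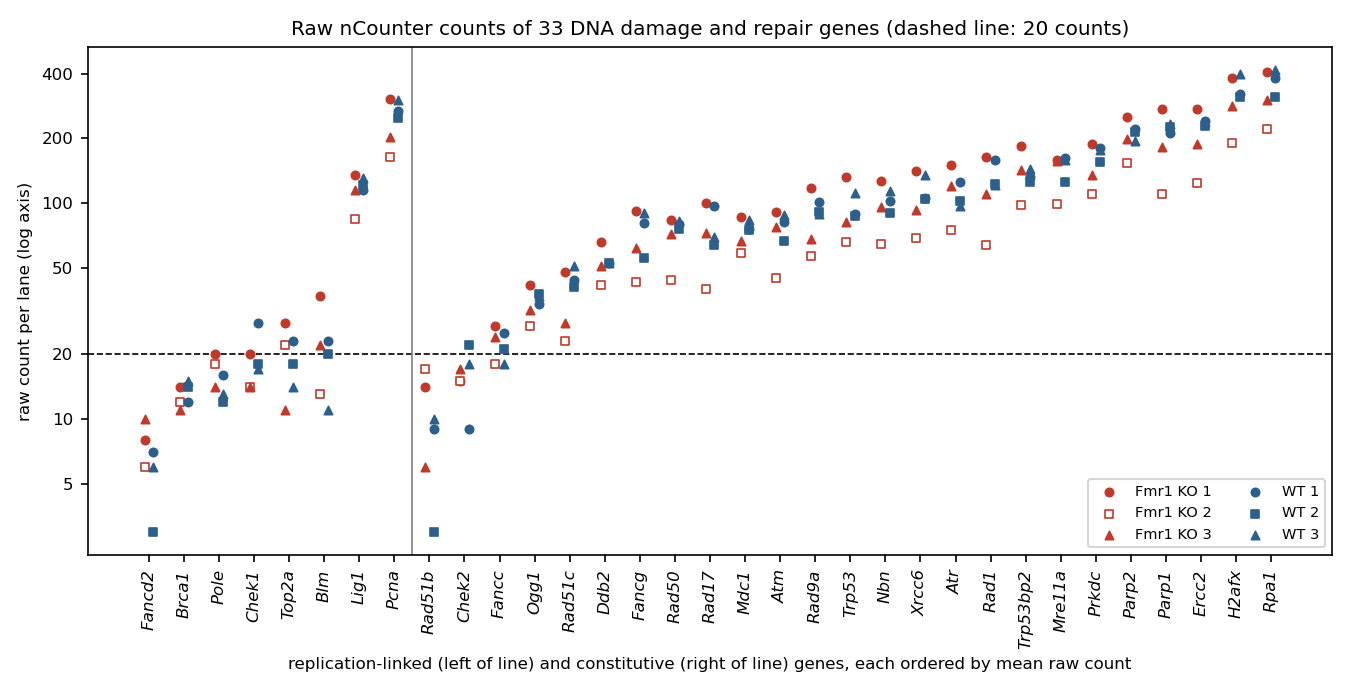
Raw counts of the 33 genes in each lane, on a log axis, with replication-linked genes left of the vertical line and constitutive genes right of it; red symbols are *Fmr1* KO mice, blue symbols WT mice, and the dashed line marks 20 counts. Of the 8 replication-linked genes 4 passed the minimum, 2 of them in exactly 3 lanes, whereas 23 of the 25 constitutive genes passed.

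The count minimum moved the replication-linked genes more than the others. With more than 10 counts in at least 3 lanes, 7 of 8 replication-linked and 24 of 25 constitutive genes were kept. With more than 50 counts these numbers were 2 and 20, the replication-linked ones being *Pcna* and *Lig1*. Leaving out *Fmr1* KO replicate 1 or WT replicate 1 reduced the replication-linked genes kept to 2, and leaving out *Fmr1* KO replicate 2 or 3 reduced them to 3, while 23 constitutive genes passed in each case.

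Genes transcribed with the cell cycle are often bound by E2F factors, and the promoters of the repair genes were searched for that sequence. RefSeq promoters (assembly GRCm38.p6), each with 250 bases before and 50 bases after a start site, were matched for 25 of the 33 genes and read on both strands for 4 E2F-type octamers, TTTCCCGC, TTTCGCGC, TTTGCCGC and TTTGGCGC. At least 1 octamer stood in the promoters of 6 of the 25 genes (24%), against 2.6% of all 27025 genes with a promoter in the table. The 6 genes were *Lig1* among 6 replication-linked genes and *Chek2*, *Fancg*, *Mdc1*, *Rad51c* and *Xrcc6* among 19 constitutive genes. The difference between the classes was not tested, and *Fancg* and *Rad51c* were counted as replication-linked in the alternative division. A match is only a match of letters and was not tested for binding. Windows of 30 bases in 3 of these genes are shown. *Lig1* was the only one of the 6 replication-linked genes with a match. *Rad51c* had 1 at each of its start sites, and *Chek2* had a match and lay under the count minimum. Capitals mark the octamer or, in the first, the third and the fourth, its reverse complement.
*Lig1*, chr7:13278841-13278870, + strand: cgccaaagtgcGCGCGAAAtctgtgtggcg
*Rad51c*, chr11:87404477-87404506, - strand: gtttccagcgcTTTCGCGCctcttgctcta
*Rad51c*, chr11:87404941-87404970, - strand: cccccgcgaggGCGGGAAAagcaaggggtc
*Chek2*, chr5:110839820-110839849, + strand: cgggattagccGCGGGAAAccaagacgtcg

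The levels of the repair genes were then compared between genotypes. Raw counts of the 601 probes above the minimum were fitted with edgeR's quasi-likelihood test, with Benjamini-Hochberg adjustment over all 601 tests. None of the 27 tested repair genes passed an adjusted p of 0.05 in edgeR, against 0.832% of all tested probes, of which 0.499% were higher and 0.333% lower in *Fmr1* KO hypothalami. The smallest adjusted p from edgeR among them was 0.581. Before adjustment, edgeR placed 1 of the 27 below 0.05, against 8.49% of all tested probes. This gene, *Trp53bp2*, was higher in *Fmr1* KO hypothalami, as were 5.66% of all tested probes, and no repair gene was lower, against 2.83% of all tested probes. In DESeq2 no repair gene had an unadjusted p under 0.05, against 5.66% of all tested probes. With the methods' t-test, 1 was higher (*Trp53bp2*, against 4.33% of all tested probes) and 1 was lower (*Ercc2*, against 3.16%). These counts of repair genes are near or under the shares over the whole panel.

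The fold changes were small and their intervals were mostly narrow. Log2 fold changes of *Fmr1* KO over WT ranged from -0.27 for *Rad51c* to 0.58 for *Blm*, with 16 above 0 and 11 below 0, and their median was 0.06, against 0.01 for all tested probes. The size of the log2 fold change was under 0.1 in 16 of the 27 genes (59.3%), against 47.4% of all tested probes. The 95% interval lay within 1.5-fold in either direction for 20 of the 27 genes (74.1%), against 66.9% of all tested probes. The 7 genes for which a change of 1.5-fold stayed within the interval were *Blm*, *Top2a*, *Fancc*, *Rad51c*, *Ogg1*, *Ddb2* and *Atr*. The variance between mice of a genotype was close to what counting alone gives: its median ratio to the counting variance was 1.05 over the 27 genes and 1.96 over all tested probes. For 11 of the 27 genes (40.7%) the variance between mice was below the counting variance, as it was for 22.6% of all tested probes.

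**Figure D2:**
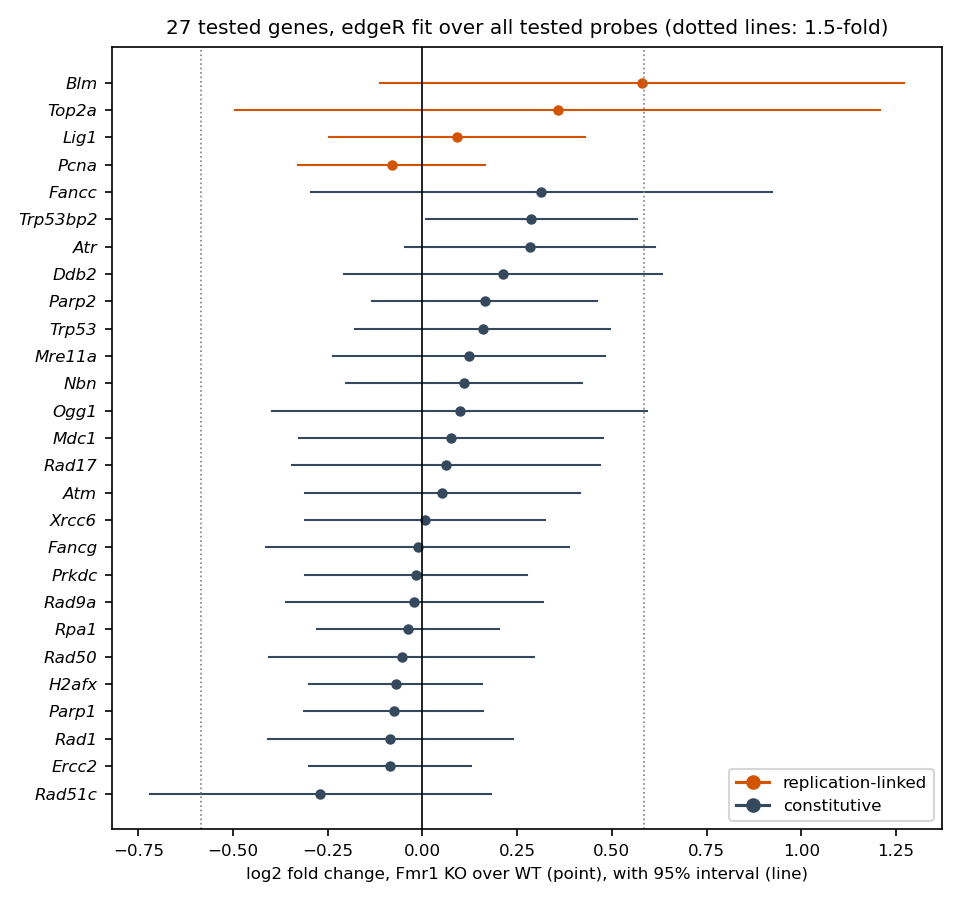
Log2 fold change of *Fmr1* KO over WT (points) with its 95% interval (lines) for the 27 tested genes, replication-linked genes above and constitutive genes below; dotted lines mark a change of 1.5-fold. Only the interval of *Trp53bp2* lies wholly on one side of 0, and the intervals of *Blm* and *Top2a* are the widest.

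In 4 of the 27 genes the genotypes did not overlap. Every *Fmr1* KO mouse was above every WT mouse in *Trp53bp2* and *Blm*, a pattern found in 6.82% of all tested probes, and below every WT mouse in *Ercc2* and *Rad51c*, a pattern also found in 6.82% of all tested probes. That amounts to 7.41% of the repair genes in each direction.

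*Ercc2*, which encodes the helicase XPD of the transcription factor TFIIH and opens DNA around bulky lesions in nucleotide excision repair, is the repair gene that the study names. The paper lists it among the genes downregulated in *Fmr1* KO mice. It marks genes by the size of the change and by a p-value for which no adjustment is stated. The adjusted p given below is therefore a different threshold. In the deposited counts the ratio of the *Fmr1* KO mean to the WT mean was 0.942. Here *Ercc2* had 210.1, 213 and 213 normalized counts in *Fmr1* KO mice and 227, 227 and 220.3 in WT mice. The *Fmr1* KO mice were all lower, and mice of 1 genotype were nearly equal. The means were 212 ± 1.60 in *Fmr1* KO and 225 ± 3.93 in WT mice (SD, n = 3 each). *Fmr1* KO over WT gave a log2 fold change of -0.09 ± 0.10 (SE, edgeR adjusted p = 0.887), with a 95% interval of 0.812-fold to 1.09-fold. The counting error of a single lane, the square root of its raw count times the lane factor, was 12.7 to 19.1 normalized counts in *Fmr1* KO lanes and 14.3 to 15.1 in WT lanes. The difference between the means, -13.0 normalized counts, was thus about as large as the counting error of 1 lane, and the mice of a genotype lay closer together than counting allows on average, with a variance 0.038 times the counting variance. None of the 601 tested probes had a lower ratio. With the methods' t-test, which takes its error from the spread of each probe alone, the unadjusted p was 0.0058 and the adjusted p was 0.600. Leaving out each mouse in turn, the log2 fold change lay between -0.10 and -0.08.

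The other excision repair genes lay on both sides of 0. *Parp2*, which senses strand breaks and builds chains of ADP-ribose, had 192, 264 and 224 normalized counts in *Fmr1* KO mice and 207, 213 and 179.8 in WT mice. *Fmr1* KO replicate 2 was the highest and the genotypes overlapped, with a log2 fold change of 0.16 ± 0.13 (SE, edgeR adjusted p = 0.800). Leaving out *Fmr1* KO replicate 2 gave 0.05, and leaving out replicate 1 of that genotype gave 0.28. Its better known relative *Parp1* had 210.1, 189 and 206 normalized counts in *Fmr1* KO mice and 199, 226 and 216 in WT mice. The log2 fold change of *Parp1* was -0.08 ± 0.11 (SE, edgeR adjusted p = 0.925), opposite in sign to that of *Parp2*, and both intervals include 0. *Ddb2*, which recognizes ultraviolet lesions, had 50.6, 72.1 and 57.4 normalized counts in *Fmr1* KO mice and 49.7, 52.8 and 48.9 in WT mice. The 3 WT mice had the same raw count of 53, and the higher *Fmr1* KO mean rested mainly on replicate 2: the ratio of means was 1.19 with it and 1.07 without it. *Ogg1*, the glycosylase that removes oxidized guanine, had a log2 fold change of 0.10 ± 0.22 (SE, edgeR adjusted p = 0.941).

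**Figure D3:**
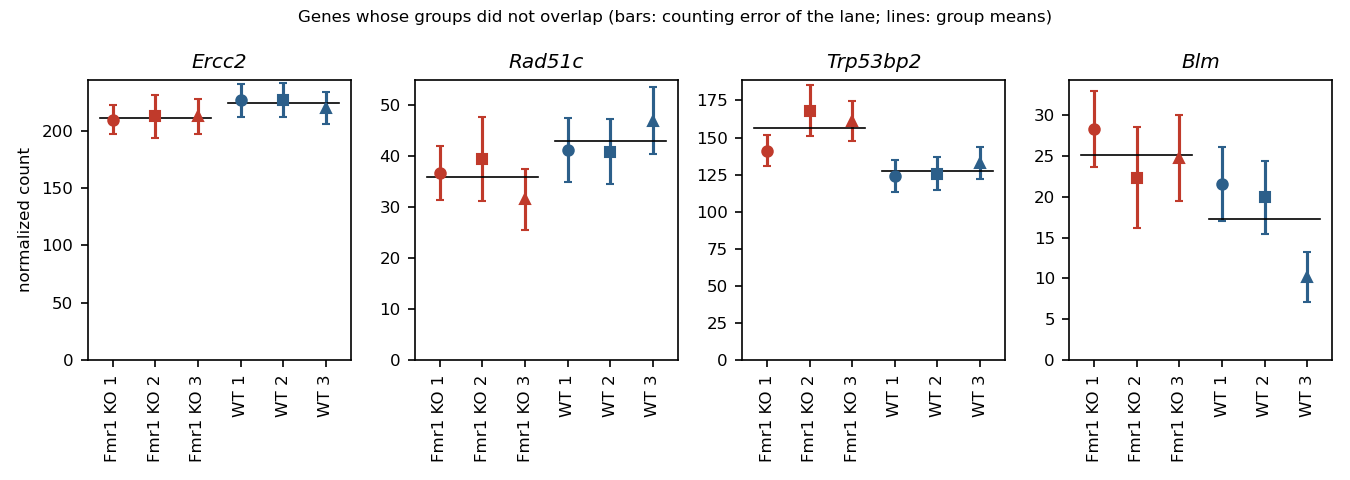
Normalized counts of *Ercc2*, *Rad51c*, *Trp53bp2* and *Blm* in each *Fmr1* KO mouse (red, left) and WT mouse (blue, right), with bars for the counting error of the lane and lines for the group means. The groups do not overlap in any of the 4 genes, and in *Ercc2* the bars (12.7 to 19.1 normalized counts) are about as long as the distance between the means (13.0).

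*Trp53bp2* encodes ASPP2, a protein that binds p53 and steers it toward genes of cell death. It had 141, 168 and 161 normalized counts in *Fmr1* KO mice and 124, 126 and 133 in WT mice. All *Fmr1* KO mice were above all WT mice, and the means were 157 ± 14.1 in *Fmr1* KO and 127 ± 4.73 in WT mice (SD, n = 3 each). On the log2 scale the fold change was 0.29 ± 0.13 (SE), with an unadjusted p of 0.0445 and an adjusted p of 0.581 from edgeR. Its interval ran from 1.01-fold to 1.48-fold. Leaving out each mouse in turn, the log2 fold change lay between 0.24 and 0.37, and the unadjusted p from edgeR was 0.0163 without *Fmr1* KO replicate 1 and above 0.05 in each of the 5 other fits. *Trp53* itself, the gene of p53, had 102, 113 and 92.3 normalized counts in *Fmr1* KO mice and 83.5, 86.7 and 103 in WT mice. The genotypes overlapped, with a log2 fold change of 0.16 ± 0.15 (SE, edgeR adjusted p = 0.857).

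Of the kinases that head the damage response, *Atr*, which is recruited to stretches of unpaired DNA, showed the largest difference. It had 116, 129 and 135 normalized counts in *Fmr1* KO mice and 118, 103 and 89.4 in WT mice. The lowest *Fmr1* KO mouse lay just below the highest WT mouse, and the means were 127 ± 9.86 in *Fmr1* KO and 103 ± 14.4 in WT mice (SD, n = 3 each). *Fmr1* KO over WT gave a log2 fold change of 0.28 ± 0.15 (SE, edgeR adjusted p = 0.667), with a 95% interval of 0.969-fold to 1.53-fold. Without WT replicate 1, the unadjusted p from edgeR was 0.0456 and the adjusted p was 0.816. *Atm*, which answers to breaks, had 69.8, 77.2 and 87.8 normalized counts in *Fmr1* KO mice and 76.9, 66.8 and 81.1 in WT mice, a log2 fold change of 0.05 ± 0.16 (SE, edgeR adjusted p = 0.975). *Prkdc*, the catalytic subunit of the kinase of end joining, had 145, 191 and 153 normalized counts in *Fmr1* KO mice and 169.8, 154 and 163 in WT mice. Its fitted log2 fold change was -0.02, while the ratio of its means was 1.0023, so the sign was not settled. Neither gene separated the genotypes. *Xrcc6*, which encodes the subunit Ku70 that holds the broken ends, had a log2 fold change of 0.01 with an interval of 0.806-fold to 1.25-fold.

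The subunits of the break sensor had fitted changes on both sides of 0. The log2 fold change was 0.12 ± 0.16 (SE) for *Mre11a*, its nuclease, and 0.11 ± 0.14 (SE) for *Nbn*, the adaptor that brings in ATM. For *Rad50*, which tethers the ends, it was -0.06 ± 0.16 (SE), and the adjusted p of the 3 genes was 0.916 to 0.971 from edgeR. *Mre11a* varied most of them between *Fmr1* KO mice, with 122, 169.9 and 178 normalized counts against 153, 126 and 147 in WT mice. *Mdc1*, a scaffold at breaks, had a log2 fold change of 0.08. *H2afx* (named *H2ax* by its accession) encodes the histone that is phosphorylated around breaks and had 291, 326 and 318 normalized counts in *Fmr1* KO mice and 301, 310.0 and 367 in WT mice. Its log2 fold change was -0.07 ± 0.10 (SE, edgeR adjusted p = 0.925), in an interval of 0.813-fold to 1.11-fold. Without WT replicate 3 it was 0.02. The clamp and its loader, *Rad1*, *Rad9a* and *Rad17*, had log2 fold changes of -0.09, -0.02 and 0.06, and the adjusted p from edgeR was at least 0.934 for each.

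Among recombination and Fanconi genes 4 were tested. *Rad51c*, which is needed for homologous recombination, had 36.8, 39.5 and 31.5 normalized counts in *Fmr1* KO mice and 41.3, 40.9 and 47.0 in WT mice. Every *Fmr1* KO mouse was lower, with means of 35.9 ± 4.05 in *Fmr1* KO and 43.1 ± 3.44 in WT mice (SD, n = 3 each). On the log2 scale the fold change was -0.27 ± 0.20 (SE, edgeR adjusted p = 0.766), and the gap between the nearest mice was smaller than the counting error of a lane, which was 5.31 to 8.23 normalized counts in *Fmr1* KO and 6.22 to 6.58 in WT lanes. *Blm*, the helicase that dissolves recombination intermediates, had 28.4, 22.3 and 24.8 normalized counts in *Fmr1* KO mice and 21.6, 19.9 and 10.1 in WT mice. The nearest mice, at 22.3 and 21.6, lay closer together than the counting error of a lane. That error was 4.66 to 6.19 normalized counts in *Fmr1* KO and 3.06 to 4.50 in WT lanes. The log2 fold change of *Blm* was 0.58 ± 0.31 (SE, edgeR adjusted p = 0.696), the highest of the 27, with an interval of 0.926-fold to 2.42-fold. WT replicate 3, with 11 raw counts, was the lowest lane, and the log2 fold change without it was 0.30. *Fancc* and *Fancg*, subunits of the complex that puts ubiquitin on FANCD2, had log2 fold changes of 0.31 and -0.01 (standard errors 0.28 and 0.18), with adjusted p of 0.812 and 0.990 from edgeR.

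Mean raw counts of the 5 genes of the replication machinery ran from 15.5 for *Pole* to 339.7 for *Rpa1*. *Rpa1*, which coats unpaired DNA and had the highest mean raw count of the 33, had 313, 381 and 338 normalized counts in *Fmr1* KO mice and 358, 310.0 and 383 in WT mice, a log2 fold change of -0.04 ± 0.11 (SE, edgeR adjusted p = 0.971). The sign turned to 0.03 without *Fmr1* KO replicate 1 and also without WT replicate 3. *Pcna*, the sliding clamp of DNA polymerases, had 233, 282 and 229 normalized counts in *Fmr1* KO mice and 252, 248 and 279 in WT mice, a log2 fold change of -0.08 ± 0.11 (SE, edgeR adjusted p = 0.916). *Lig1*, the ligase that joins fragments of the lagging strand and seals excision patches, had 104, 146 and 129 normalized counts in *Fmr1* KO mice and 108, 122 and 121 in WT mice, a log2 fold change of 0.09 ± 0.15 (SE, edgeR adjusted p = 0.934). In all 3 genes the genotypes overlapped. *Top2a* had 21.5, 37.8 and 12.4 normalized counts in *Fmr1* KO mice and 21.6, 17.9 and 12.9 in WT mice, a log2 fold change of 0.36 ± 0.39 (SE, edgeR adjusted p = 0.883). A single *Fmr1* KO lane, replicate 2, was above the WT lanes, and the ratio of means was 1.37 with it and 0.969 without it.

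The 2 classes were set side by side, as a description with no test. The median log2 fold change was 0.22 over the 4 tested replication-linked genes, with a range of -0.08 to 0.58, and 0.05 over the 23 tested constitutive genes, with a range of -0.27 to 0.31. Without *Fmr1* KO replicate 2 the medians were -0.01 over 3 and -0.03 over 23 genes, and without WT replicate 1, where only *Pcna* and *Lig1* passed the minimum, the replication-linked median was -0.03. The classes also differed in precision, with a median width of the 95% interval of 1.03 on the log2 scale for the replication-linked and 0.676 for the constitutive genes. Mouse by mouse, the median log2 ratio of the replication-linked genes to the WT mean was 0.07, 0.35 and -0.02 in *Fmr1* KO mice and 0.13, 0.05 and -0.19 in WT mice. For the constitutive genes it was -0.03, 0.13 and 0.02 in *Fmr1* KO mice and 0.01, -0.06 and 0.01 in WT mice. *Fmr1* KO replicate 2 was the highest lane in both classes, and the other *Fmr1* KO mice lay inside the range of the WT mice, except replicate 3 in the constitutive genes, just above it.

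The same lane stood out most in the genes with the fewest counts. Over the 6 genes under the minimum, the median log2 ratio to the WT mean was -0.02, 0.88 and 0.13 in *Fmr1* KO mice and 0.25, -0.14 and 0.09 in WT mice, whereas the median raw count was 14.5, 14.5 and 12.5 in *Fmr1* KO lanes and 10.5, 13 and 14 in WT lanes. The raw count of these genes in *Fmr1* KO replicate 2 was thus not lower than in the other lanes, although its total was, and the lane factor of 1.72 raised it above them. *Fmr1* KO replicate 2 had the highest normalized count in 4 of these 6 genes and in 13 of the 27 tested ones, against 82.8% of the 186 probes under the minimum and 36.4% of the tested probes. *Pole* is an example, with 15.3, 30.9 and 15.8 normalized counts in *Fmr1* KO mice and 15.0, 12.0 and 12.0 in WT mice. The ratio of its means was 1.59 with *Fmr1* KO replicate 2 and 1.20 without it, and over the 6 genes the median ratio was 1.40 with that lane and 1.09 without it. The mean of the 78 lowest probes of the table, multiplied by the lane factor, was 6.62, 15.8 and 6.67 in *Fmr1* KO lanes and 7.82, 7.40 and 7.12 in WT lanes, and its part in these ratios was not tested.

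**Figure D4:**
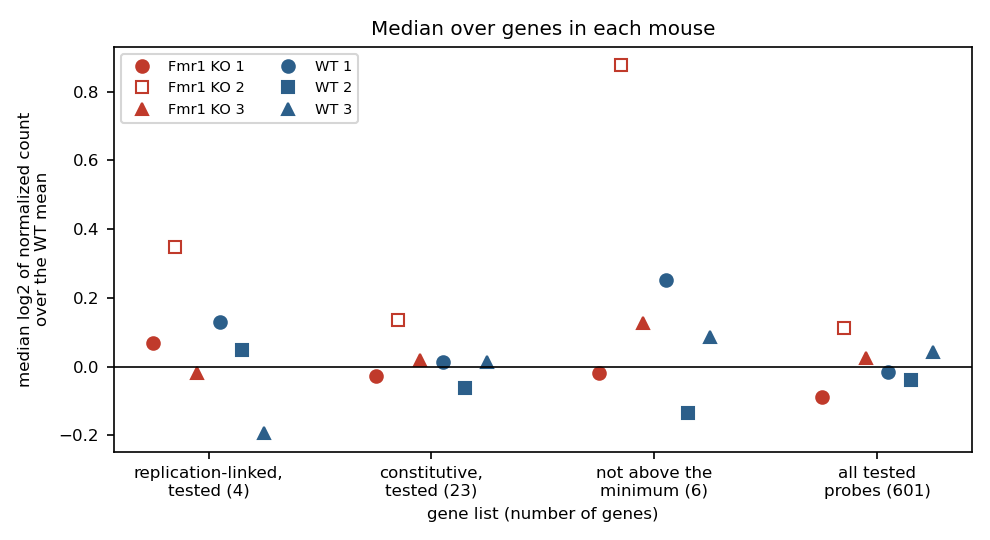
Median over genes of the log2 ratio of the normalized count to the WT mean, in each *Fmr1* KO mouse (red, left in each list) and WT mouse (blue, right), for the tested replication-linked and constitutive genes, the 6 genes under the count minimum and all tested probes. *Fmr1* KO replicate 2 (open square) is the highest lane in each list, at 0.35, 0.13, 0.88 and 0.11.

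From a list of 96 other genes of the damage response, of replication and downstream of p53, 37 had a row and 32 were tested. None of the 32 passed the adjusted threshold from edgeR or DESeq2, and none had an unadjusted p under 0.05 in either, against 0.832% and 8.49% of all tested probes in edgeR. Before adjustment, 1 of the 32 was under 0.05 in edgeR with TMM, 2 with median-ratio scaling and 5 without *Fmr1* KO replicate 1. Leaving out *Fmr1* KO replicate 2, WT replicate 1 or WT replicate 3 gave 1 each. The shares of all tested probes under 0.05 in these settings were not counted, so these numbers cannot be judged against the panel. In the main fit the log2 fold change was above 0 in 20 of the 32 (52.7% of all tested probes were above 0), with a median of 0.07. The smallest adjusted p from edgeR was 0.630. As examples chosen after their values were seen, *Cdkn1a*, the p53 target that arrests the cell cycle, had 91.2, 156 and 187 normalized counts in *Fmr1* KO mice and 152, 183 and 167 in WT mice, and *Mdm2*, the p53 target that degrades p53, had 386, 429 and 392 in *Fmr1* KO mice and 399.6, 388 and 361 in WT mice. The log2 fold changes of *Cdkn1a* and *Mdm2* were -0.24 ± 0.22 (SE) and 0.07 ± 0.09 (SE), with adjusted p of 0.844 and 0.916 from edgeR. *Fmr1* KO replicate 1 alone was low in *Cdkn1a*.

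Markers of cell types were read beside these genes. The 8 markers of hypothalamic neurons summed to 15719.8, 11924.4 and 19470.0 normalized counts in *Fmr1* KO mice and 10425.3, 11200.7 and 11497.5 in WT mice, with every *Fmr1* KO mouse above every WT mouse and 6 of the 8 log2 fold changes above 0. This sum leaned on *Oxt* and *Avp*. *Oxt* had 6785, 2006 and 3956 raw counts in *Fmr1* KO mice and 1913, 3346 and 2693 in WT mice. For *Avp* they were 6907, 1941 and 7728 in *Fmr1* KO mice and 3360, 2808 and 4003 in WT mice. *Pomc* went the other way, with 398, 248 and 238 raw counts in *Fmr1* KO mice and 607, 440 and 511 in WT mice. The sum was not read as a number of neurons. The 4 markers of neighbouring tissue summed to 354.2, 260.9 and 157.6 normalized counts in *Fmr1* KO mice and 246.7, 221.3 and 1745.1 in WT mice, the last being mostly *Prl*. The cortical gene *Slc17a7* had 386, 88 and 80 raw counts in *Fmr1* KO mice and 92, 186 and 221 in WT mice. *Fmr1* KO replicate 1 thus stood apart in that gene. The 3 tested markers of neighbouring tissue had log2 fold changes above 0. Of 6 markers of cycling cells, 2 had a row, *Top2a* and *Birc5*, and their summed normalized counts were 46.0, 101.3 and 36.0 in *Fmr1* KO mice and 44.1, 42.9 and 30.4 in WT mice, so that *Fmr1* KO replicate 2 was again alone at the top. The 4 microglial markers summed to 675, 731 and 713 normalized counts in *Fmr1* KO mice and 743, 693 and 812 in WT mice. Of these 4, 1 had a log2 fold change above 0. Of 4 markers of oligodendrocyte precursors, 1 had a row, *Bcas1*, with a log2 fold change above 0. It had 811, 884 and 1072 normalized counts in *Fmr1* KO mice and 725, 673 and 1008 in WT mice. The 5 markers of mature oligodendrocytes summed to 13481, 19401 and 19122 normalized counts in *Fmr1* KO mice and 10994, 9984 and 15639 in WT mice, with all 5 log2 fold changes above 0. The part of these cells in the values of the repair genes was not tested.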

How the data were processed

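The raw nCounter counts of 787 probes in 6 lanes were deposited by the authors without normalization, exported from nSolver. The authors' value table holds a signal that is the raw count times 1 factor per lane, which the methods base on 7 housekeeping genes. The deposited percent of lanes above the authors' threshold covers lanes beyond these 6 and was not used. Each lane's factor was recovered as the median ratio of both tables. The members and gene lists were chosen with earlier results of these data known, and the classes were assigned from the genes' known functions. Samples were grouped by the genotype in the labels.

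Probes with more than 20 raw counts in at least 3 of 6 lanes were fitted with edgeR 4.0.16 (glmQLFit, glmQLFTest) in R 4.3.3, with effective lane sizes proportional to the inverse of the lane factor, and adjusted over 601 probes. The standard error is the size of the log2 fold change over the square root of F. DESeq2 1.42.0, limma 3.58.1 and the methods' t-test were alternatives, beside other scalings, count minima, a background subtraction, the replicate block and each mouse left out. On simulated data for 601 probes with 200 changed, edgeR called 96% of 2-fold and 66% of 1.5-fold changes, and 94.2% of its intervals held the true value. All simulated probes shared 1 dispersion, which those of the data do not. In the data edgeR called 5 probes, so these shares need not hold there and may be too high. The chi-square per degree of freedom between lanes of a genotype was at least 2.72, so no lane was a duplicate.

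Full values were given for *Ercc2*, the 4 tested genes with the smallest p in each direction, genes with an unadjusted p under 0.05, the 3 with the highest counts, *Atm*, *Atr*, *Chek1*, *Chek2*, *Trp53*, *Parp1* and the replication-linked genes. Other members were chosen after their values were seen. All 33 probes were named by accession, with names from GRCm38.p6. Coordinates are of that assembly.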

Additional observations from a re-analysis of the deposited data

How the results depend on the processing

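No repair gene passed the adjusted threshold in any of the 17 other settings, and the smallest adjusted p was 0.253, without *Fmr1* KO replicate 1. At an unadjusted p under 0.05 the number of higher repair genes was 1, but 0 in DESeq2 and with the replicate block, and 0 to 1 with 1 mouse left out. The number of lower repair genes was 0, and 1 with the methods' t-test (*Ercc2*). Over all tested probes 3 were higher and 2 were lower at the adjusted threshold. The methods' t-test gave 0 and 0, and the lower count was 1 with no filter, with probes averaging 50 raw counts or more and with the replicate block. With 1 mouse left out, 1 to 9 were higher and 1 to 3 were lower. The number of repair genes above the count minimum stayed within 1.5 times 27. The median log2 fold change of the replication-linked genes was 0.0078 with probes averaging 50 raw counts or more, which keeps only *Pcna* and *Lig1*, and -0.0249 with *H2afx*, *Rpa1*, *Fancg* and *Rad51c* counted in that class. With 1 mouse left out it was -0.0313 (without WT replicate 1) to 0.251, and for the constitutive genes the range was -0.0322 (without *Fmr1* KO replicate 2) to 0.0902. In limma with 10 added to each normalized count, the medians were 0.171 for the replication-linked and 0.0542 for the constitutive genes. With the background subtracted before that step, they were 0.157 and 0.0153. Of 14 genes named by rule, 4 turned their direction in at least 1 setting. Outside the 14, *Rad50*, *Rad17*, *Rad1*, *Rad9a*, *Fancg*, *Mdc1*, *Ogg1*, *Prkdc* and *Xrcc6* also turned their direction with 1 mouse left out. *Blm* and *Top2a* could not be fitted with probes averaging 50 raw counts or more or without 3 of the mice each, nor *Rad51c* with that average, since they fell under the minimum there. *Rpa1* lay between -0.12 and 0.03, *H2afx* between -0.12 and 0.0227, *Atm* between -0.044 and 0.15 and *Lig1* between -0.0094 and 0.23 with 1 mouse left out. Replicate numbers correlated between genotypes at -0.09, -0.07 and 0.11, and the main fit treated the mice as unpaired. Correlations this weak cannot show whether mice of the same number shared a batch. The 95% intervals of 7 genes reached 1.5-fold, among them *Blm*, *Top2a* and *Fancc*, which lay near 20 raw counts.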
